A study of Mus musculus with 27 samples.

Results

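The genes described here are the enzymes and binding proteins that write, erase, read and move the marks of chromatin: lysine acetyltransferases, histone deacetylases and sirtuins, DNA methyltransferases and TET dioxygenases, Polycomb proteins, the MLL family and its partners, other lysine and arginine methyltransferases, PRDM proteins, lysine demethylases, bromodomain and PHD finger proteins, and ATP-dependent remodelers with the ARID proteins. They were chosen by the start of the gene symbol. The rule uses no measured value, but it was written with earlier results of these data known. It took 71 of the 5486 genes of the deposited table. Prdm16 was left out by the rule. Members were assigned to 10 roles by symbol, and 41 genes of textbook roles had been listed for naming, of which 17 are in the table, all of them members. Genes that are not in the table, such as Dot1l, Ezh2 or Tet2, were not analysed here.

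The RNA came from 27 sorted samples of mouse bone marrow (BM). The AML cells were granulocyte-macrophage progenitors (GMPs) of mT/mG mice, which express membrane tdTomato, that had been transduced with a retrovirus carrying the MLL-AF9 fusion and GFP, and were passed on from primary leukemias of 3 donors to recipient mice. Each donor leukemia is a batch, named 1, 3 or 19. The cells of batches 1 and 3 had been stored from BM and those of batch 19 from spleen, so the source tissue of batch 19 and its donor cannot be told apart. When the BM of recipients was fully infiltrated, endosteal AML cells were freed by crushing the metaphysis and central AML cells by flushing the diaphysis, and DAPI- GFP+ mTomato+ cells were sorted, with 3 libraries per region and batch (18 AML libraries). The region and the way of releasing the cells cannot be told apart. The 9 control libraries were GMPs sorted from whole BM of healthy wild-type mice matched for age and sex, without transduction, transplantation or storage. They fall into control sets A, B and C, each with 3 libraries. The name of a set lists 3 numbers, and what they stand for is not given in the labels. The study's figure legend counts as many control mice as there are control libraries, without tying a library to a mouse. Libraries of 1 set share a name and may not be independent, although they were tested as separate samples. All differences between AML and GMPs therefore hold the fusion, the transplantation and the preparation together. Libraries of 1 batch share a donor leukemia, so a p-value here refers to the variation among the sequenced libraries and does not extend to other leukemias.

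Chromatin carries information in methyl groups on DNA and in acetyl and methyl groups on histone tails. Writers add these groups, erasers remove them, readers with chromodomains, bromodomains or PHD fingers bind them, and remodelers such as the SWI/SNF and CHD enzymes slide or evict nucleosomes with energy from ATP. MLL, encoded by Kmt2a, is a histone methyltransferase that keeps Hox genes active in blood stem and progenitor cells. In MLL-AF9 leukemia its N-terminal part, which binds menin (Men1), is joined to the C-terminal part of AF9 (Mllt3), which binds Dot1l and the elongation machinery. This is why menin, Dot1l, Polycomb and LSD1 (Kdm1a) have been studied as dependencies of this leukemia.

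Reads of 75 bases from the 3′ end of transcripts were deposited as CPM, the read count of a gene scaled to the total of its library. Values are compared below as log2(CPM + 1), and a log2 difference is a difference between group means on this scale, given with its standard error (SE). It understates the change of genes with few reads. Each gene of the table had passed an FDR of 0.05 in a comparison of the authors that is not named, so most genes in the table change in some way, and the members' counts are set beside those of all genes of the table. In the 24 libraries used for tests on reads, 5.60 to 13.4 M reads were counted (median 9.05 M). Library 18, an endosteal library of batch 1, stood apart from the other AML libraries. Its root mean square deviation from its group over the members was 0.585 on the log2 scale, against 0.136 to 0.407 in the other AML libraries. Library 18 is named below at some, but not all, of the values that it moves. GMP libraries 25 and 9 deviated by 0.579 and 0.540, against 0.268 to 0.370 in the other GMP libraries. Library 3, an endosteal library of batch 3, held the most reads of Gm42418, an RNA that overlaps ribosomal RNA sequence (64441 CPM). Of 13 tested MLL-AF9 target genes 9 rose in AML and 3 fell (Mef2c, Bcl2 and Zfp521). Of 8 GMP markers 6 fell and 2 rose (Cebpe and Fcgr3). The summed CPM of these 8, in GMPs mostly Mpo, was 11654.5 to 26679 in GMPs and 1354 to 6082 in AML. The 14 neutrophil and macrophage genes all rose, with sums of 102 to 347 CPM in GMPs and 679 to 3467 CPM in AML. Of 7 tested erythroid and megakaryocyte genes 6 fell (median log2 difference -2.18), and 1, Gp1bb, rose. The summed CPM of the 8 in the table was 38.8 to 150.5 in GMPs and 3.62 to 22.02 in the AML libraries other than library 18, which held 117 CPM, mostly of Gp1bb. The GMP and AML samples thus differ in the markers of other stages and lineages as well, and the part of this in the differences below was not tested. In bulk RNA, fewer cells of a type and less RNA per cell cannot be told apart. Summed CPM of 7 stromal and endothelial genes ranged from 2.92 to 16.9 in GMPs and 2.91 to 16.9 in AML, with changes in opposite directions, since 4 of 6 tested fell and Cxcl12 and Pdgfrb rose (log2 differences 1.93 and 0.64). That of 5 B and T cell genes ranged from 13.4 to 19.1 and 13.4 to 27.2. Defining markers such as Cd3e and Cdh5 were not analysed here.

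The question of the comparison between AML and GMPs is which genes of a normal progenitor change when it has become leukemic. Most chromatin genes differed, as did most genes of the table, and in both directions. Of 69 members tested, 31 (44.9%) rose in AML and 30 (43.5%) fell (limma, Benjamini-Hochberg adjusted p below 0.05 over all tested genes). Among all 5160 genes tested, 50.7% rose and 37% fell by the same rule. The share of members that rose was thus below, and the share that fell above, that of the table. This difference in shares was not tested. The median log2 difference of the members was -0.13, beside 0.33 for all genes. Without batch 3 the members' median was 0.028 and that of all genes 0.30. Log2 differences of at least 1 were found for 10 members in each direction (14.5% of those tested), beside 18.2% of all genes higher and 12.4% lower. After quantile normalization 6 members were higher and 10 lower by at least 1 (all genes 13.9% and 16.6%), and in the edgeR test on whole reads 14 and 10 (all genes 25.1% and 19.8%). Quantile normalization also moved the median of all genes from 0.33 to 0.18 and the median of members to -0.28. Under TMM scaling the medians were 0.23 and -0.26. Counts in single roles, given below, are small. No role was tested against the other genes, and each count is to be read beside the 50.7% and 37% of all genes. The 2 members under 1 CPM in most libraries were not tested. Chd5, a remodeler of the CHD family, ranged from 0.101 to 0.965 CPM in AML and from 0 to 0.456 CPM in GMPs, and the row Dnmt3c-ps, a gene named as a pseudogene and close in sequence to Dnmt3b, from 0 to 0.447 and from 0 to 1.09 CPM.

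**Figure D1:**
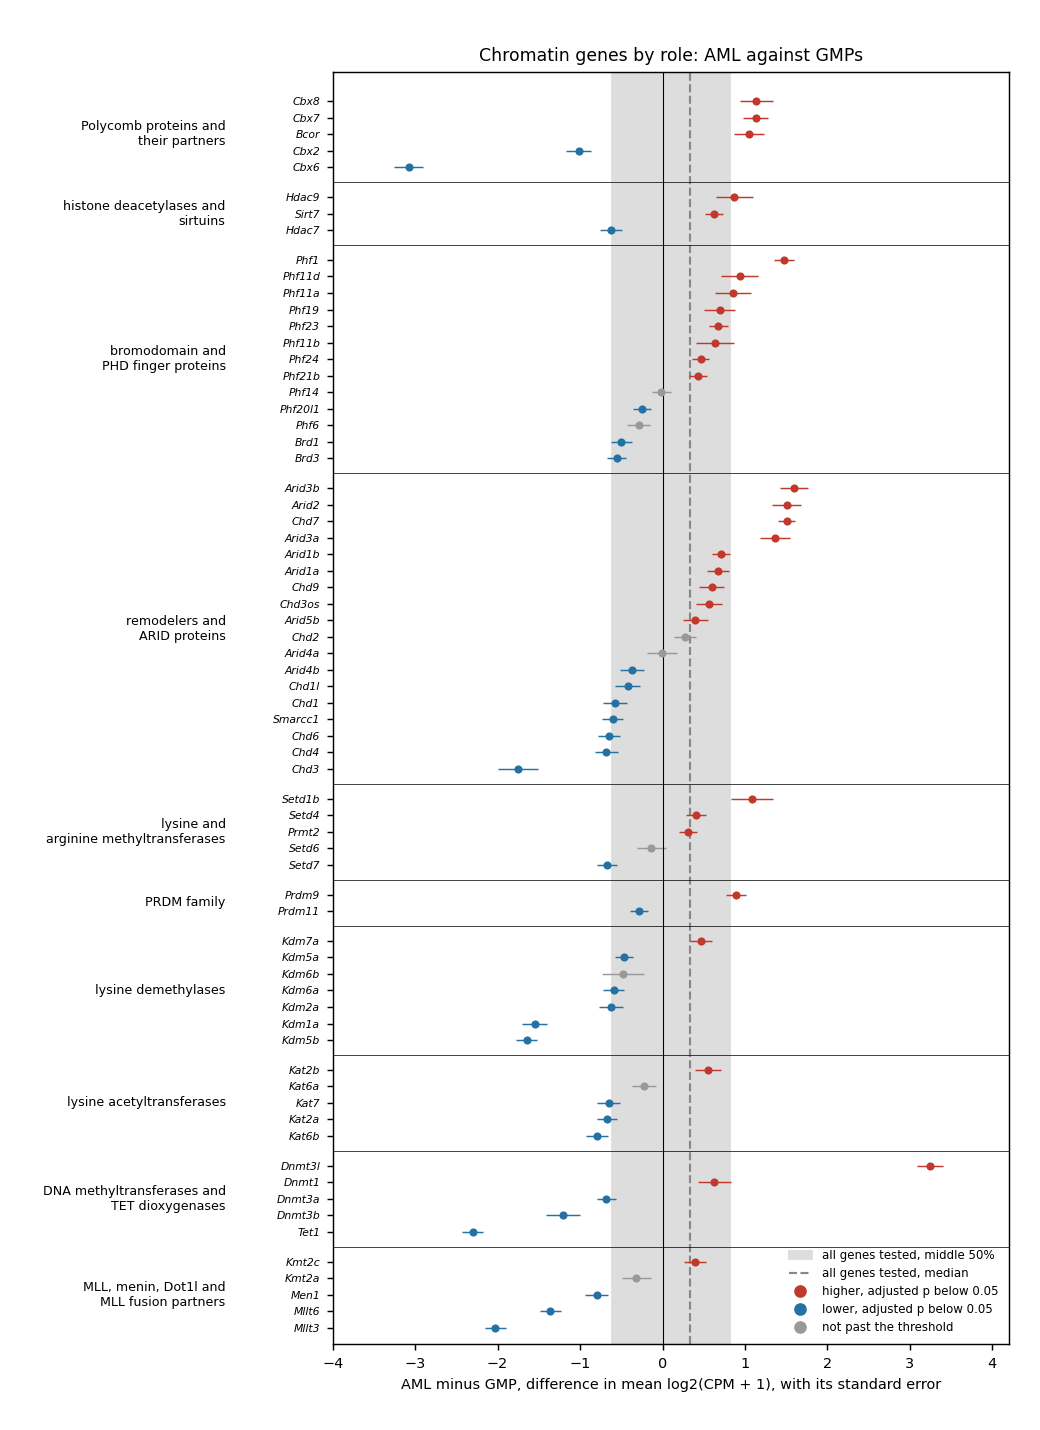
AML minus GMP for 68 of the 69 chromatin genes tested, by role. Each point is the log2 difference of a gene with its standard error (n = 18 AML and 9 GMP libraries), red or blue where the adjusted p is below 0.05, the grey band holds the middle 50% of all 5160 tested genes and the dashed line their median of 0.33. Dnmt3l (3.24) and Cbx6 (-3.08) lie farthest from 0.

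Transcripts of the enzymes of DNA methylation changed in opposite directions. Dnmt3l, the cofactor without catalytic activity that stimulates the de novo methyltransferases and is best known from germ cells (chr10:78041947-78063622, plus strand, Gencode M21 on mm10), rose more than any other member. It was at 1.43 to 3.73 CPM in the 9 GMP libraries (median 1.85) and at 17.001 to 50.3 CPM in the 18 AML libraries (median 28.8). Exons of Dnmt3l overlap those of Aire on the other strand. Such an overlap in the annotation was found for 20 members, also for Arid3b, Cbx7, Dnmt3a, Hdac7, Kdm6b, Kdm7a, Kmt2a and Phf1, and whether counting used strand is not given in the sources used here. For Dnmt3l the groups did not overlap, and the log2 difference was 3.24 (SE 0.16, limma adjusted p = 5.80e-16). Tet1, a dioxygenase that oxidizes methylated cytosine (chr10:62804570-62908996), went the other way. It was at 4.38 to 9.01 CPM in GMPs (median 6.85) and at 0 to 1.66 CPM in AML (median 0.643), with a log2 difference of -2.30 (SE 0.13). No AML library came near the lowest GMP library, and in 17 of the 18 at least 1 read was seen. The de novo enzymes Dnmt3a and Dnmt3b fell, by 0.68 and 1.21. In batch 1 the mean log2(CPM + 1) of Dnmt3a was 5.42 (endosteal) and 5.08 (central), beside 5.42 in GMPs. Dnmt3b was at 16.9 to 51.9 CPM in GMPs (median 38.3) and at 4.17 to 24.4 CPM in AML (median 15.1), where the lowest value is library 18. The maintenance enzyme Dnmt1 rose by a log2 difference of 0.63 (SE 0.20, limma adjusted p = 0.00505). The groups overlapped much, at 180 to 602 CPM in GMPs and 181 to 740 CPM in AML. The lowest AML value is library 18, and the next is 246 CPM. The call of Dnmt1 was lost in the edgeR test on whole reads (adjusted p = 0.0525) and in limma without batch 19 (adjusted p = 0.0568).

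**Figure D2:**
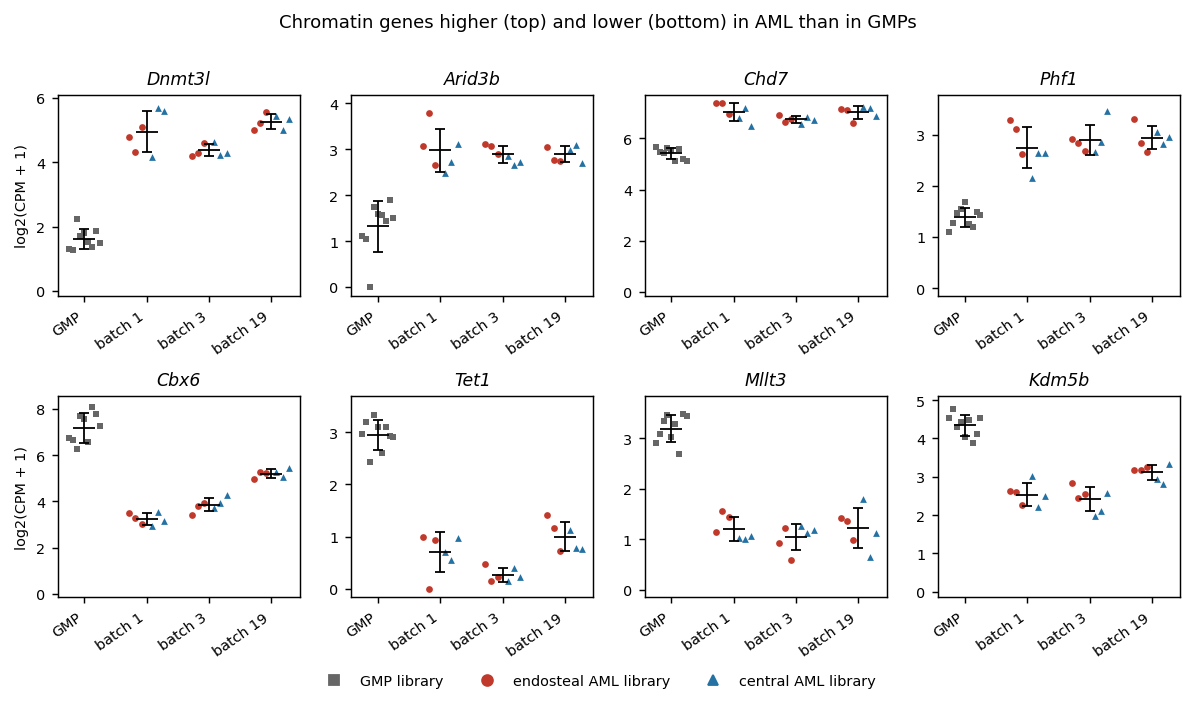
Values of 4 chromatin genes that rose and 4 that fell in AML, per library, as log2(CPM + 1). Squares are GMP libraries, circles endosteal and triangles central AML libraries, and the bars give the mean and SD of each column (n = 9 GMP libraries and 6 per batch). None of the 8 genes has an AML library within the range of the GMP libraries.

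Among Polycomb genes, transcripts of the CBX proteins changed in both directions. These chromodomain proteins bind methylated histone tails and share a place in Polycomb repressive complex PRC1. Cbx6 (chr15:79823896-79834688, minus strand) fell more than any other member. It was at 75.1 to 271 CPM in GMPs (median 152) and at 6.78 to 42.9 CPM in AML (median 13.7), without overlap and with a log2 difference of -3.08 (SE 0.17, adjusted p = 2.16e-14). Exons of Cbx6 overlap those of Npcd on the same strand in the annotation, and reads of the shared part cannot be assigned to either. Cbx2 also fell, from 2.24 to 6.78 CPM in GMPs to 0.596 to 3.53 CPM in AML (log2 difference -1.02, SE 0.15). Cbx7 and Cbx8 rose. Cbx7 was at 0.818 to 2.98 CPM in GMPs and 2.57 to 8.31 CPM in AML, and Cbx8 at 1.49 to 7.75 and 4.62 to 20.1 CPM, each with a log2 difference of 1.13 (SE 0.15 and 0.20). The ranges of both overlapped, for Cbx7 through library 11, a central library of batch 19 (2.57 CPM), and for Cbx8 through library 18 (4.62 CPM) and library 11 (7.29 CPM). Exons of Cbx7 overlap Apobec3 on the other strand. Bcor, a corepressor of a variant Polycomb complex and an X-linked gene mutated in human AML, rose by 1.05 (SE 0.18), with 11.1 to 38.8 CPM in GMPs and 21.3 to 74.5 CPM in AML. All 5 members of this role thus differed, 3 higher and 2 lower, and all 4 CBX genes of the table were among them.

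The genes of MLL and its partners were lower or not called, apart from Kmt2c. Mllt3, which encodes AF9 (chr4:87769925-88033364, minus strand), was at 5.46 to 10.2 CPM in GMPs (median 8.69) and at 0.496 to 2.47 CPM in AML (median 1.19), without overlap (log2 difference -2.03, SE 0.13). Where the vector's AF9 part would be counted is not given in the sources used here, so these values do not measure the fusion. Mllt6, which encodes the PHD finger protein AF17, was at 5.86 to 11.1 CPM in GMPs and 1.06 to 5.67 CPM in AML (log2 difference -1.36, SE 0.13), again without overlap. Men1, the gene of menin, fell by 0.80 (SE 0.14), from 34.3 to 82.1 CPM in GMPs to 17.7 to 54.998 CPM in AML. Kmt2a itself was at 22.6 to 69.6 CPM in GMPs and 10.5 to 82.9 CPM in AML, and its log2 difference of -0.32 (SE 0.18, adjusted p = 0.0955) did not pass. It passed as lower under TMM scaling (-0.44, adjusted p = 0.0196), quantile normalization, without batch 1, without control set A, with central AML libraries alone and without libraries 3 and 18, and was 0.028 without batch 3. Kmt2c, which methylates enhancer histones, rose by 0.39 (SE 0.13).

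Outside the symbol rule, 8 of 23 listed partners of MLL fusion complexes are in the table. Of these, 2 rose and 4 fell (median log2 difference -0.32), beside 50.7% and 37% of all genes (median 0.33). Aff3, a paralog of the fusion partner AF4, was at 12.4 to 40.3 CPM in GMPs and 0.144 to 6.07 CPM in AML (log2 difference -3.52). Psip1, which encodes LEDGF and tethers MLL and menin to chromatin, fell by 1.12, and Ash2l, a core subunit of MLL complexes, rose by 0.88.

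Among lysine demethylases 5 of 7 fell and 1 rose, beside 37% and 50.7% of all genes. Kdm5b, which removes methyl groups from active promoters, was at 13.8 to 26.1 CPM in GMPs (median 20.451) and at 2.92 to 9.15 CPM in AML (median 5.13). Kdm1a, the LSD1 demethylase (chr4:136550540-136602723, minus strand), was at 12.5 to 23.98 CPM in GMPs (median 16.6) and at 2.21 to 10.3 CPM in AML (median 5.20). Neither gene overlapped between the groups, and the log2 differences were -1.65 (SE 0.12) and -1.55 (SE 0.15). Kdm2a, Kdm5a and the X-linked Kdm6a fell by 0.62, 0.47 and 0.59 over all AML groups, but in batch 1 they lay near GMPs. The mean log2(CPM + 1) of Kdm2a in batch 1 was 5.99 (endosteal) and 5.79 (central), beside 5.99 in GMPs. For Kdm5a these means were 6.04 and 5.55, beside 5.74, and for Kdm6a 4.68 and 4.36, beside 4.51. Kdm6b, the inducible demethylase of Polycomb marks, had a log2 difference of -0.48 (SE 0.25, adjusted p = 0.0792). It was at 2.68 to 28.2 CPM in GMPs, where library 25 held the lowest value, and passed as lower without control set C (-0.91, adjusted p = 0.000447), in the edgeR test on whole reads (-0.92), under TMM scaling, quantile normalization, without batch 1 and without library 25 or 26. Kdm7a rose by 0.47 (SE 0.13).

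Acetyltransferases were mostly lower and deacetylases mixed. Kat2a, the GCN5 acetyltransferase, fell by 0.68 (SE 0.12), from 27.02 to 43.4 CPM in GMPs to 12.6 to 32.001 CPM in AML, while its paralog Kat2b (PCAF) rose by 0.55 (SE 0.16), from 2.92 to 7.33 to 3.46 to 11.8 CPM. Kat6b and Kat7, of the MYST family, fell by 0.79 and 0.65. Kat6a, the MYST gene rearranged in some human AML, was at 11.9 to 28.2 CPM in GMPs and 9.73 to 28.5 CPM in AML (log2 difference -0.23, adjusted p = 0.144), and passed as lower under TMM scaling, quantile normalization and without batch 1. The class IIa deacetylases Hdac7 and Hdac9 moved apart. Hdac7 fell by 0.62 (SE 0.14) and Hdac9 rose by 0.87 (SE 0.23). Without batch 19 the call of Hdac7 was lost (-0.28, adjusted p = 0.101). Sirt7, a nuclear sirtuin, rose by 0.63, but shares exon positions with Mafg on the same strand.

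Remodelers and ARID proteins held 4 of the 8 named members with the largest increases. Arid3b was at 0 to 2.72 CPM in GMPs and 4.60 to 12.9 CPM in AML (log2 difference 1.60, SE 0.17). Arid2, a subunit of the PBAF remodeler, was at 10.03 to 28.6 CPM in GMPs and 21.02 to 80.5 CPM in AML (1.505, SE 0.17), and Arid3a at 15.1 to 44.5 and 32.5 to 129 CPM (1.36, SE 0.18). In both, library 18 was the AML library that reached into the GMP range. Chd7, a remodeler that binds active enhancers, was at 33.7 to 49.7 CPM in GMPs (median 43.8) and at 87.5 to 168 CPM in AML (median 117), without overlap (1.504, SE 0.10, adjusted p = 1.53e-12). Arid1a and Arid1b, the alternative large subunits of the BAF form of SWI/SNF, rose by 0.67 and 0.71, whereas Smarcc1, a core subunit of all SWI/SNF forms, fell by 0.60. The NuRD ATPases Chd3 and Chd4 fell. Chd3 was at 16.9 to 57.1 CPM in GMPs (median 39.1) and at 2.89 to 94.2 CPM in AML (median 7.46), a log2 difference of -1.75 (SE 0.24), and Chd4 fell by 0.68. In batch 1 the mean log2(CPM + 1) of Chd4 was 8.43 (endosteal) and 7.98 (central), beside 8.39 in GMPs. The row Chd3os, named for a transcript opposite to Chd3, rose by 0.56. In the role as a whole 9 members rose, 7 fell and 2 (Chd2 and Arid4a) did not pass.

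Of the 13 bromodomain and PHD finger genes 8 rose and 3 fell, beside 50.7% and 37% of all genes. Those that rose include the 3 neighbouring Phf11 genes described with the batches. Phf1, a partner of PRC2 that binds methylated histone tails, was at 1.14 to 2.22 CPM in GMPs (median 1.71) and at 3.45 to 10.05 CPM in AML (median 6.12), without overlap (log2 difference 1.48, SE 0.12). Its exons overlap Cuta on the other strand. Phf19, a paralog of Phf1, rose by 0.69, and Phf23 by 0.67, while the bromodomain genes Brd1 and Brd3 fell by 0.50 and 0.56. In batch 1 the mean log2(CPM + 1) of Brd1 was 5.56 (endosteal) and 5.03 (central), beside 5.36 in GMPs. For Brd3 these means were 7.08 and 6.89, beside 7.09. Of the remaining methyltransferases, Setd1b rose by 1.08 (SE 0.25), from 19.95 to 88.9 CPM in GMPs to 17.2 to 163 CPM in AML, where library 18 was the lowest and the next was 85.5 CPM. Setd7 fell by 0.67. In the PRDM family, Prdm9, known for placing meiotic recombination, was low in all libraries and rose from 0.584 to 1.77 CPM in GMPs to 1.22 to 5.68 CPM in AML.

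Every AML library lay above every GMP library for 4 of the 71 members (Arid3b, Chd7, Dnmt3l and Phf1), beside 7.78% of all 5486 genes, and below every GMP library for 7 (among them Cbx6, Kdm1a, Kdm5b, Mllt3, Mllt6 and Tet1), beside 6.16%. A longer list of chromatin regulators with other symbols, such as the Pcgf, Ing, Baz and Nsd genes, had 35 genes in the table. Of these, 10 rose and 21 fell, beside 50.7% and 37% of all genes tested. Their median log2 difference was -0.47, beside 0.33 for all genes. Baz2b, a bromodomain protein, was at 27.9 to 82.3 CPM in GMPs and 227 to 1247 CPM in AML, and Usp22, the deubiquitinase of the SAGA complex, which also holds Kat2a, fell by 1.07.

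**Figure D3:**
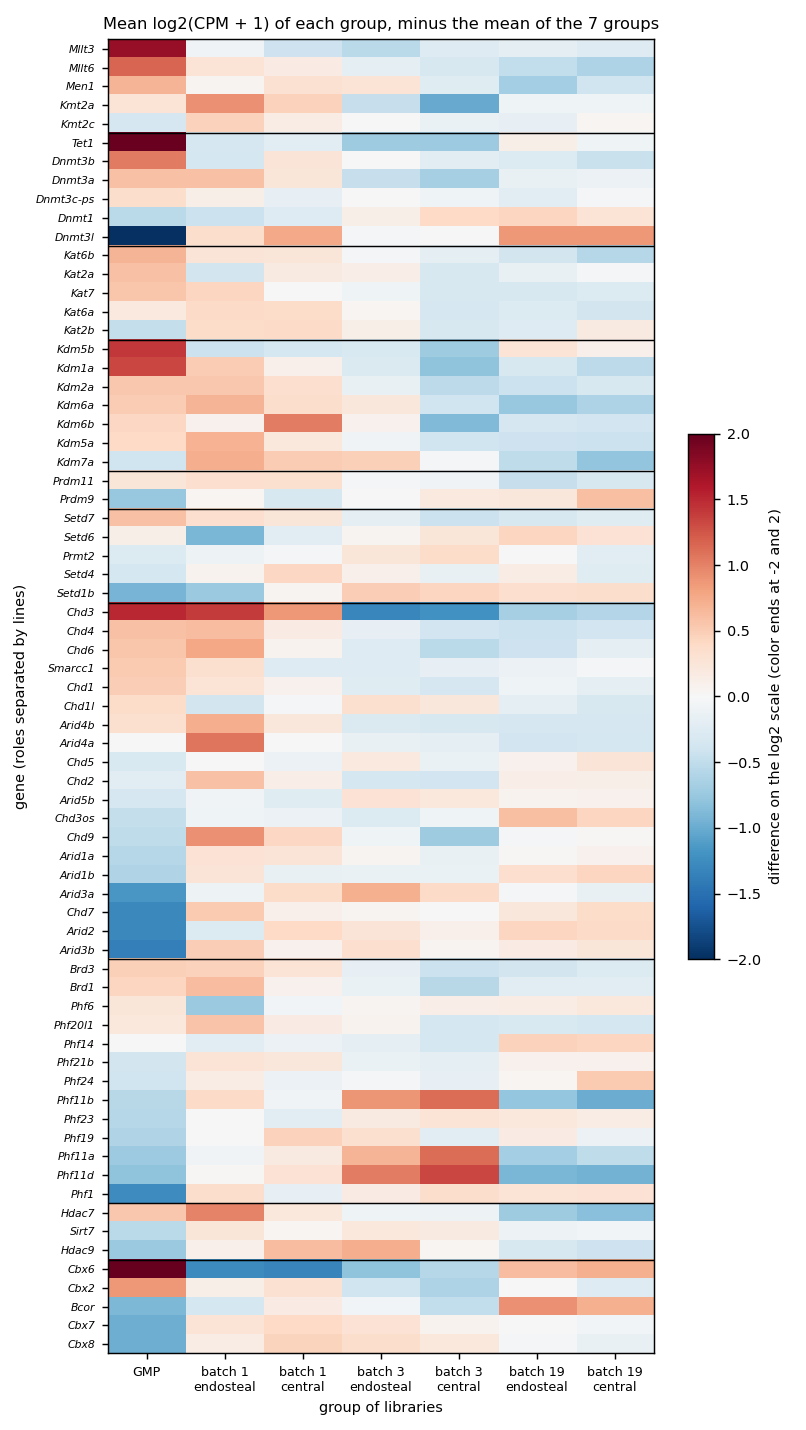
Mean log2(CPM + 1) of 70 of the 71 chromatin genes in the 7 groups of libraries (n = 9 GMP libraries and 3 libraries in each AML group), minus the mean of the 7 groups. Lines separate the roles, and the color scale ends at -2 and 2. Dnmt3l is lowest and Cbx6 and Tet1 are highest in GMPs, and Chd3 is high in GMPs and batch 1 and low in batch 3.

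The AML batches were compared to see which chromatin genes each donor leukemia had at its own level. Of 68 members tested among the 18 AML libraries, 47 differed among the batches (limma F test with region as a term, adjusted p below 0.05), beside 65.7% of all 4820 genes tested. Members that differed were most often highest in batch 1. That held for 28 of 68 members, beside 26.2% of all genes, while 7 were highest in batch 3 (all genes 15.1%) and 12 in batch 19 (all genes 24.4%). Without library 18 the counts were 32, 9 and 10, beside 28.5%, 16.4% and 26% of all genes. The median difference between batch 1 and the average of batches 3 and 19 was 0.26 over the members and -0.037 over all genes. The 28 included all 6 of the lysine demethylases other than Kdm5b, the CHD remodelers Chd1, Chd2, Chd3, Chd4, Chd6 and Chd9, and the acetyltransferases Kat6a, Kat6b and Kat7. Large differences were few. With a log2 difference of at least 1 required, 3 members were higher and 1 lower in batch 1 (all genes 8.44% and 7.07%), 3 higher and 2 lower in batch 3 (3.94% and 4.09%), and 2 higher and 5 lower in batch 19 (7.05% and 6.54%). Among the 21 members that did not pass the test among batches were Mllt3, Arid3b, Phf1, Chd7, Cbx7 and Cbx8.

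Cbx6 separated the batches most clearly (F test adjusted p = 1.49e-08). It was at 6.78 to 10.6 CPM in the 6 libraries of batch 1 (mean 8.57), 9.79 to 18.1 CPM in batch 3 (mean 13.7) and 30.1 to 42.9 CPM in batch 19 (mean 36.1). Batch 19 did not overlap with the others, and its log2 difference from them was 1.66 (SE 0.13), against -1.29 for batch 1. Every batch was below the 75.1 CPM of the lowest GMP library.

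Kmt2a and Chd3 were highest in batch 1 and lowest in batch 3. Kmt2a (chr9:44803355-44881296, minus strand) was at 77.9, 82.9 and 54.7 CPM in endosteal and 60.5, 43.8 and 50.98 CPM in central libraries of batch 1. In batch 3 it was at 26.1, 38.3 and 18.7 CPM in endosteal and 10.5, 23.99 and 22.8 CPM in central libraries. These batches did not overlap, and batch 19 lay between them at 22.7 to 47.8 CPM. The log2 differences from the other batches were 1.09 in batch 1 and -1.04 in batch 3 (SE 0.20 for both). The latter fell just under the threshold of 1 without library 2 (-0.86) or library 5 (-0.95), and in the edgeR test (-0.88). Chd3 (chr11:69343273-69369406, minus strand) was at 21.4, 94.2 and 20.3 CPM in endosteal and 12.7, 51.4 and 19.8 CPM in central libraries of batch 1. It was at 2.89 to 5.51 CPM in batch 3 and 5.29 to 11.9 CPM in batch 19. Batch 1 lay above all other AML libraries, with a log2 difference of 2.08 (SE 0.31), which was 1.73 without library 18, the highest. Batches 3 and 19 lay below every GMP library for this gene, and batch 1 reached into the range of GMPs.

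**Figure D4:**
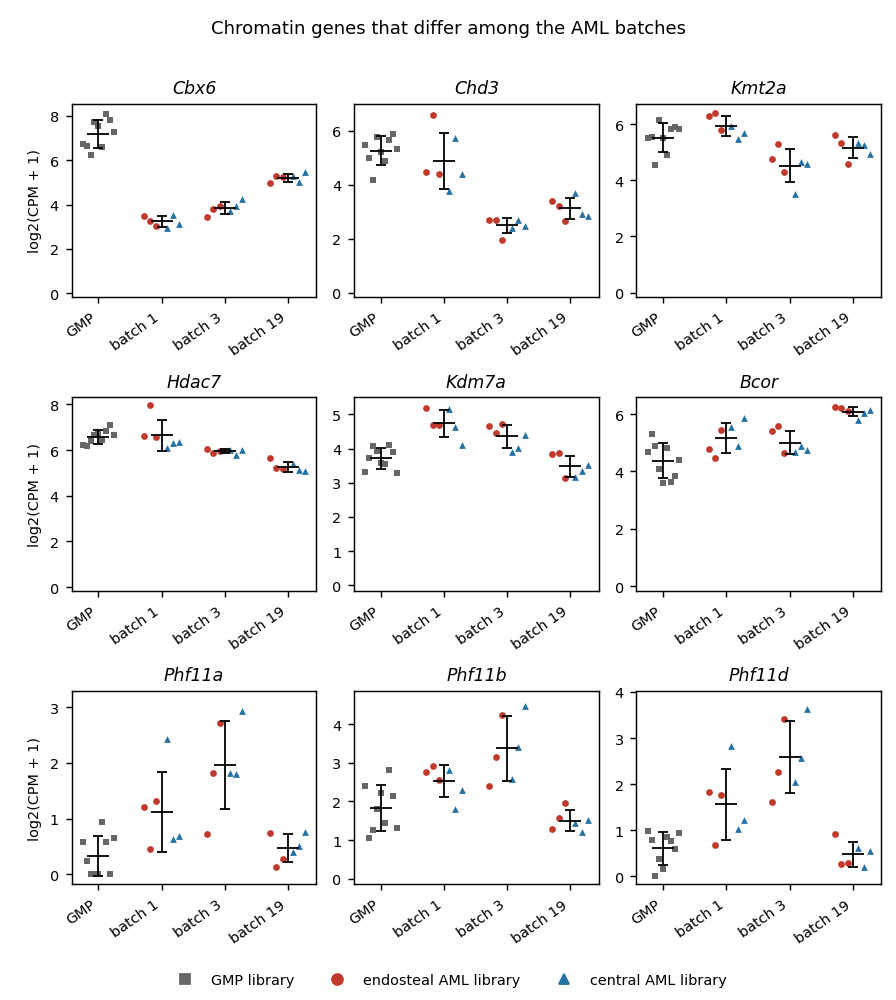
Values of 9 chromatin genes that differed among AML batches, per library, as log2(CPM + 1). Symbols and bars are as in the plot of genes that rose or fell, with n = 9 GMP libraries and 6 libraries per batch. Cbx6 is highest in batch 19 among the batches, Chd3 and Kmt2a in batch 1, and the Phf11 genes in batch 3, with 2 libraries far above the others.

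Hdac7 fell in steps over the batches, at 67.0 to 248 CPM in batch 1, 54.7 to 64.8 CPM in batch 3 and 33.1 to 49.6 CPM in batch 19, without overlap. The value of 248 CPM is library 18 and the next is 96.1 CPM. The log2 difference of batch 1 was 1.03 (SE 0.18) with all libraries and 0.78 (adjusted p = 3.14e-06), under the threshold of 1, without library 18. That of batch 19 was -1.03. Kdm7a was at 7.89 to 13.5 CPM in batch 19, below every other AML library (13.98 to 35.5 CPM), with a log2 difference of -1.07 (SE 0.16) and an F test adjusted p of 3.04e-05. Without library 14 the difference was -0.96, and 3 in place of 5 members were then lower in batch 19 by at least 1. Bcor was highest in batch 19 (54.6 to 74.5 CPM, against 21.3 to 56.7 in batch 1 and 24.1 to 47.4 in batch 3). Its log2 difference of 1.001 (SE 0.19) was at the threshold, and it ranged from 0.93 to 1.08 when single libraries were left out.

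Other members differed by less. Dnmt3a, an enzyme often mutated in human AML, was at 27.4 to 49.2 CPM in batch 1, 14.9 to 24.2 CPM in batch 3 and 19.9 to 29.1 CPM in batch 19 (F test adjusted p = 9.14e-05). Dnmt3l had its lowest mean in batch 3 (17.4 to 23.6 CPM), where batch 1 reached down to 17.001 CPM, and Tet1 was at 0.101 to 0.386 CPM in batch 3. Kdm6a, on the X chromosome, was at 17.3 to 33.7 CPM in batch 1, 9.15 to 21.4 CPM in batch 3 and 5.62 to 10.6 CPM in batch 19. Its log2 differences were 0.90, -0.0028 and -0.89 in that order, and batches 1 and 19 did not overlap. The sex of the donors is not given in the labels.

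The 3 members that stood out as higher in batch 3 belong to the Phf11 cluster on chromosome 14. Phf11a, Phf11b and Phf11d encode PHD finger proteins, and lie within 88.6 kb on the minus strand (chr14:59276913-59365470, Gencode M21 on mm10). Their promoters are shown because these neighbours moved together and because a comparison with interferon genes follows. The sequences are the RefSeq windows of GRCm38.p6, from 250 bases before to 50 bases after the start, written 5′ to 3′ on the minus strand. Capitals mark the core of the interferon-stimulated response element (ISRE), searched on both strands as GAAA, any 2 bases, then GAAA.
Phf11a, chr14:59297473-59297772: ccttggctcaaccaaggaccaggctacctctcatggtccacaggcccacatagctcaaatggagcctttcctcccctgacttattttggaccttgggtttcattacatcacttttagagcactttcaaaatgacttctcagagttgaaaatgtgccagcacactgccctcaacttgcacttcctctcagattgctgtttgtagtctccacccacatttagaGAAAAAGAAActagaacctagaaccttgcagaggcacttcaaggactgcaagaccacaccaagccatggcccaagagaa
Phf11b, chr14:59341281-59341580: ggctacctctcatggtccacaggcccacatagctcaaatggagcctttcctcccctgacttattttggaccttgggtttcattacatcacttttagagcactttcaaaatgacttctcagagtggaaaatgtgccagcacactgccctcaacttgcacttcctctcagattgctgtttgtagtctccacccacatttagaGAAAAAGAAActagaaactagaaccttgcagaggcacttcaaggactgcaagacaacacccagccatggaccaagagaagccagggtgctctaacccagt
Phf11d, chr14:59365441-59365740: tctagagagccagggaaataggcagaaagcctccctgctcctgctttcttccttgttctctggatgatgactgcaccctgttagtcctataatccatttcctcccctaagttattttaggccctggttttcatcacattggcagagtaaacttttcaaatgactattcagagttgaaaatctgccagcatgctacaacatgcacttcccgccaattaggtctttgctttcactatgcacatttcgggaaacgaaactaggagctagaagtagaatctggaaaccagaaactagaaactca

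The windows of Phf11a and Phf11b are identical at 274 of 279 aligned bases (98.2%) and each hold 1 match of the ISRE core, and that of Phf11d holds none. The core was found in 3.44% of all 32851 RefSeq promoter windows of this length and in 5 windows of 4 members (Arid4b, Bcor, Phf11a and Phf11b) of the 79 windows of the 53 members that matched. Only these windows were compared, not the transcripts. Whether reads were split or shared between Phf11a and Phf11b cannot be seen from the table. As a group the member promoters were rich in CpG. They held a median of 21 CpG sites in 300 bases, beside 17 in those of genes of the table and 7 in all windows. The GC box (GGGCGG on either strand) was found in 62.0% of member windows, 57.1% of those of the table and 35.7% of all.

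Phf11b was at 4.25, 7.95 and 17.8 CPM in endosteal and 5.03, 9.63 and 21.4 CPM in central libraries of batch 3. It was at 2.50 to 6.56 CPM in batch 1 and 1.30 to 2.92 CPM in batch 19, and at 1.07 to 6.05 CPM in GMPs. Libraries 5 and 6 of batch 3 were the highest of all 27 for this gene, and batch 19 lay below every library of batch 3. The same libraries 5 and 6 were highest for Phf11a (5.54 and 6.64 CPM) and Phf11d (9.59 and 11.4 CPM). In batch 19 Phf11d was at 0.144 to 0.885 CPM and Phf11a at 0.104 to 0.704 CPM. The log2 differences of batch 3 from the other batches were 1.57 for Phf11d, 1.36 for Phf11b and 1.17 for Phf11a (SE 0.30, 0.27 and 0.28), and those of batch 19 were -1.60, -1.45 and -1.07. Phf11a fell under the threshold in batch 3 without library 5 (0.98) or library 6 (0.99), and in batch 19 without library 5, 6 or 17 (-0.97, -0.98 and -0.95). None of the 3 genes passed as higher in batch 3 with endosteal libraries alone, where the adjusted p ranged from 0.0583 to 0.135. Against GMPs they rose by 0.93 (Phf11d), 0.86 (Phf11a) and 0.64 (Phf11b) over all AML groups, but not in each batch. In batch 19 the mean log2(CPM + 1) was 1.61 (endosteal) and 1.39 (central) for Phf11b, beside 1.83 in GMPs, and 0.49 and 0.46 for Phf11d, beside 0.60. Genes of the interferon response were also higher in batch 3. Of 20 such genes tested, 18 were higher there than in the other batches by at least 1, beside 3.94% of all genes. Lower by at least 1 were 9 in batch 1 and 3 in batch 19 (all genes 7.07% and 6.54%). The Phf11 genes were lowest in batch 19. Some of the interferon genes, such as Ifi203 and Zbp1, were also lowest there, and others, such as Isg15 and Rtp4, in batch 1. The summed CPM of the 21 genes in the table was 259 to 773 in batch 3 and 86.0 to 173 in batch 1. It was 115 to 169 in batch 19 and 104 to 182 in GMPs. The part of the interferon response in the values of the Phf11 genes was not tested.

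Endosteal and central AML cells were compared because the BM near bone and the central BM change differently in this leukemia. No chromatin gene was found to differ between the regions. By limma with batch as a term, 0 of 68 members were higher and 0 lower in endosteal cells at an adjusted p below 0.05, beside 0% and 0% of all 4820 genes. The edgeR test on whole reads also called 0 members in either direction. At an unadjusted p below 0.05, 5 members were higher in endosteal cells and 0 lower, beside 183 and 40 of all genes. The 3 with the smallest p were Brd1 (log2 difference 0.33, SE 0.13), Phf20l1 (0.29, SE 0.13) and Kdm7a (0.33, SE 0.15), each with an adjusted p of 0.887 by limma. Brd1, a scaffold of MYST acetyltransferase complexes, was at 47.8, 48.5 and 42.3 CPM in endosteal and 27.7, 32.8 and 34.7 CPM in central libraries of batch 1. In batch 3 it was at 28.9, 30.9 and 22.1 against 17.7, 21.7 and 20.02 CPM, and in batch 19 at 36.3, 23.6 and 18.7 against 28.9, 25.6 and 21.2 CPM. The regions were thus apart in batches 1 and 3 and overlapped in batch 19, where the difference was 0.0092. Toward central cells the smallest p were those of Phf6 (-0.27, SE 0.17), Setd6 (-0.25, SE 0.23) and Phf11a (-0.29, SE 0.27), with the same adjusted p. Library 18 was the lowest AML library for Phf6 (5.22 CPM) and Setd6 (2.83 CPM), and without libraries 3 and 18 the difference of Setd6 was 0.020.

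**Figure D5:**
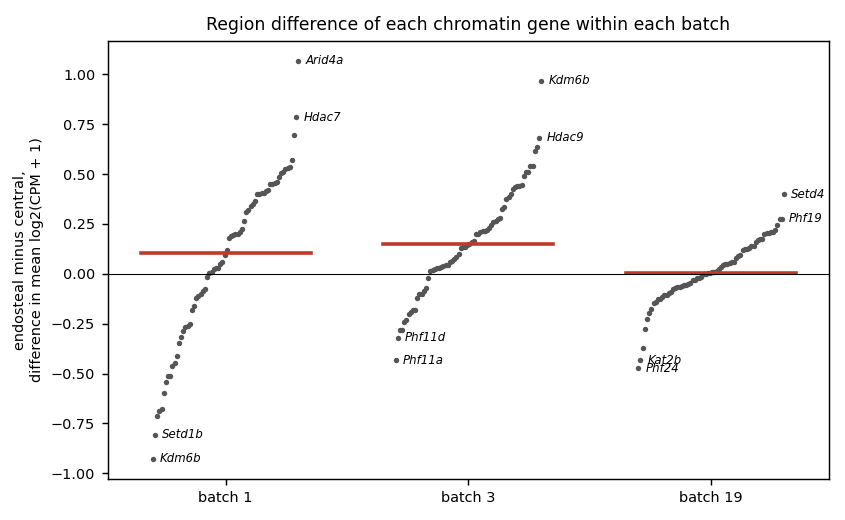
Endosteal minus central difference in mean log2(CPM + 1) of 68 chromatin genes within each batch (n = 3 libraries per region and batch), with genes in order of their value and the median as a red line. The medians are 0.11 in batch 1, 0.15 in batch 3 and 0.0066 in batch 19, and Kdm6b is the lowest gene in batch 1 and the highest in batch 3.

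Within batches the members spread around small medians of 0.11 in batch 1, 0.15 in batch 3 and 0.0066 in batch 19, and over all batches the median was 0.09, beside 0.017 for all genes. The spread was widest in batch 1, from -0.93 (Kdm6b) to 1.07 (Arid4a), and narrowest in batch 19, from -0.47 to 0.40. Whether the batches differ in their region effect was asked with an interaction term, which called 0 of 68 members, beside 0% of all genes, by limma, and 0 by edgeR. At an unadjusted p below 0.05 there were 4 members and 289 of all genes. Kdm6b had the smallest p among the members (limma adjusted p = 0.765). It was at 10.6, 9.39 and 11.0 CPM in endosteal and 28.6, 10.5 and 28.1 CPM in central libraries of batch 1, and at 11.6, 15.8 and 5.79 against 3.92, 5.20 and 5.28 CPM in batch 3. The difference was -0.93 in batch 1, 0.97 in batch 3 and 0.048 in batch 19. The unadjusted p of the limma interaction test was 0.0061, which did not pass after adjustment over all tested genes. Arid4a reached 231 CPM in library 18 and 87.1 and 125 CPM in the other endosteal libraries of batch 1, beside 57.9 to 70.5 CPM in the central ones.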

How the data were processed

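RNA of sorted mouse AML cells and GMPs was sequenced with the QuantSeq 3′ mRNA-Seq kit. Per the labels and the study's methods, the authors trimmed reads with Cutadapt 1.9, mapped them to mm10 with HISAT2 and counted them per gene with featureCounts, and the deposited CPM are reads scaled to the library total, rounded to 3 decimals. The deposited table also holds the authors' log2 fold changes and mean log2 values, which were not used, and their adjusted p-value (FDR), which was below 0.05 for all 5486 genes and was not used further. Table columns name the batch, region and number of a library but no replicate number of the sample labels.

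Of the low CPM values, 100% were whole multiples of the CPM of 1 read (tolerance 0.1 of a read). Reads were tested in 24 libraries. In the other 3, where 1 read is worth 0.0993 to 0.101 CPM, the step did not pass a second check. The genes of the table hold 22.0% to 28.3% of the reads. The main test, on log2(CPM + 1), was the two-sided moderated test of limma 3.58.1 under R 4.3.3 (trend option), over genes of at least 1 CPM in at least 3 libraries, with Benjamini-Hochberg adjustment over all of them. AML against GMPs compared the mean of 6 AML groups with GMPs. Tests among batches and between regions used the 18 AML libraries with the other factor as a term, and calls in single batches also required a log2 difference of at least 1. The script was tested on simulated data. Genes were placed by Gencode M21 (69 members matched), and promoters are from RefSeq (GRCm38.p6).

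The members and gene lists were chosen with earlier results of these data known. Genes are named by size of change (up to 8 in each direction against GMPs, up to 4 per batch and direction), by smallest p (4 among batches, 3 in each direction between regions) and by role. Other members and genes of lists were named after their values were seen. Of the members, 1 is counted but its values are not reported here. Alternatives were pseudocounts of 0.5 and 3, no filter or 5 CPM, TMM scaling, quantile normalization, edgeR 4.0.16 (quasi-likelihood) on whole reads, no batch term, single regions, and each library or batch left out. Leaving out control sets, or libraries 3 and 18 together, and a block of consecutive library numbers were added after the data were seen.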

Additional observations from a re-analysis of the deposited data

Results flagged for a closer look

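The values of 36 named genes were searched for libraries far from the rest of their group (9 GMP libraries, or the 6 libraries of a batch), by the gap to the nearest library as a share of the group's range. Of 144 sets of values 9 were marked (6.25%), and chance alone marks about 1 in 20. Library 18 of batch 1 accounts for 5 of them. There Hdac7 was at 248 CPM (next 96.1), Arid3b at 12.9 CPM (next 7.67) and Kdm6a at 33.7 CPM (next 23.1), while Dnmt3b was at 4.17 CPM (next 20.3) and Setd6 at 2.83 CPM (next 14.1). In library 17 of the same batch Phf11a was at 4.35 CPM (next 1.49) and Phf11d at 6.14 CPM (next 2.54). In batch 19 library 12 held 77.7 CPM of Arid2 (next 66.0), and in batch 3 library 6 held 10.05 CPM of Phf1 (next 6.57). No marked value lay in a GMP library. The values of library 18 move the batch 1 differences of Hdac7 and Chd3, which are given without it beside the results.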

How the results depend on the processing

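Between 25 and 32 members rose and 26 and 34 fell in AML in all alternatives run, beside 31 and 30. Rises of at least 1 were 6 in place of 10 after quantile normalization. Counts changed by over 1.5 times in these cases. At a pseudocount of 3, 1 member each was higher or lower in batch 3 and in batch 19. In endosteal libraries alone 17 members differed among batches, 6 were higher in batch 1, and 0 were higher and 0 lower in batch 3. In central libraries alone 29 differed and 1 was higher in batch 19, as also without libraries 3 and 18. Fewer samples enter these fits, and their counts over all genes are not given here. Leaving out single libraries gave 1 to 2 members higher and 3 to 5 lower in batch 19 and 1 to 2 lower in batch 3, where Bcor, Kmt2a, Kdm7a and Phf11a lie near the threshold. Region and interaction calls stayed at 0. The edgeR test on whole reads called 2221 of all genes higher and 1890 lower in AML, and 26 and 29 members. Of the called log2 differences of named members none changed sign. Among those not called, Kmt2a in AML against GMPs was 0.028 without batch 3 and Setd6 between regions was 0.020 without libraries 3 and 18. The causes were not tested. The labels state no pairing of endosteal and central libraries, but their numbers alternate. Deviations from the group mean correlated across genes at 0.033 to 0.41 within the 9 pairs of consecutive numbers, and 8 of 9 endosteal libraries correlated best with their own number (not library 12). With these pairs as a block 0 members were higher and 0 lower in endosteal cells (smallest adjusted p 0.697 by limma). Of all genes, 2 were called between the regions. In region effect 0 members and 0 of all genes differed between batches. The tests among batches and against GMPs used no such block. If the libraries of a pair share a mouse, the p-values of those tests may be too small. Libraries 5 and 6, the highest for the Phf11 genes, are such a pair. A value of 1 CPM stands for 5.60 to 13.4 reads in a library.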
